A study of Mus musculus with 6 samples.

Results

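The genes of glycolysis and of the hypoxia response were examined in 6 RNA-seq libraries of mouse glioblastoma (GBM) tissue. The set holds 34 of the 16729 genes of the deposited table and was chosen by function, as the glycolytic enzymes and their brain isoforms, the lactate transporters, targets of the hypoxia-inducible factors (HIF) and the regulators of the oxygen response. The tumors were formed by mG7080 cells, a gliomasphere culture from a genetically engineered mouse model of GBM, injected into the brains of female C57BL/6 hosts aged 6 to 8 weeks by the methods (8 to 12 weeks by the reporting summary). The hosts were wild type (WT 1, WT 2 and WT 3) or carried a deletion of Esm1, which encodes the endothelial proteoglycan Endocan (KO 1, KO 2 and KO 3). The injected cells were the same in both groups, so the deletion concerns the host alone, and the libraries hold RNA of tumor and host cells together. The labels number the tumors, and the study describes the RNA-seq as done on 3 mice in each group.

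Glycolysis splits glucose into pyruvate, and most of its steps can be carried by alternative isoforms that differ between neurons, glia and tumor cells. Lactate dehydrogenase then interconverts pyruvate and lactate, and the monocarboxylate transporters move lactate and pyruvate across the cell membrane. In low oxygen the HIF alpha subunits escape hydroxylation by the Egln enzymes, pair with Arnt and bind a short DNA motif near many glycolytic and survival genes, a response for which the necrotic zones of GBM are known.

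The label of the library called KO 2 is in doubt. The WT libraries held 25, 21 and 82 counts of Esm1, against 1, 24 and 4 counts in KO 1, KO 2 and KO 3, so the library labelled KO 2 held as many Esm1 reads as a WT library. The log2 fold change of Esm1 was -2.20 over all 6 libraries (standard error, SE, of 1.01, adjusted p = 0.192, edgeR) and -3.89 without KO 2 (SE 0.98, adjusted p = 0.0226, edgeR). On the first principal component of all genes, with 88.1% of the variance, KO 2 (24.9) lay between WT 1 (10.7) and WT 3 (54.1), while KO 1 (-71.6) and KO 3 (-90.0) lay apart. The deletion concerns the host alone, so Esm1 reads in a KO tumor could also come from the injected cells. The summed markers of cycling cells, given below, were also higher in KO 2 than in KO 1 and KO 3. Whether the label or the mix of tumor and host cells sets KO 2 apart was not tested. For 26 of the 34 members (76.5%) KO 2 was nearer to the WT mean than to the mean of KO 1 and KO 3, against 77.5% of all genes tested. Each member is therefore given over all 6 libraries and again without KO 2, as KO 1 and KO 3 against the 3 WT libraries. KO 2 is also the KO library nearest to WT, and it was set aside after its values were seen, so the p-values without it depend on that choice. Levels of a gene between libraries are in CPM, read counts relative to library size as scaled by edgeR's TMM factors, with 17632070 to 22241832 counts per library, so that a single count was worth 0.0441 to 0.0568 CPM. This precision covers counting error only and matters most for Car9 (14 to 48 counts), Adm (23 to 70 counts) and Slc16a7 (32 to 330 counts), the members with the fewest reads in any library.

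HIF binds a short core motif in the promoters and enhancers of hypoxia genes. The motif letters ACGTG and GCGTG were searched on both strands of the 300-base windows that RefSeq start sites define in GRCm38.p6. Promoter windows were on hand for 31 of the 34 members, Ndrg1, Epas1 and Slc16a7 being without one. Of the 11 hypoxia genes with a window, 10 held either motif (90.9%), Car12 alone having neither, and of the 20 glycolysis genes 17 did (85.0%). Several glycolysis genes have more than 1 window, and 24 of their 32 windows held a motif (75.0%). Over all 32851 windows of the RefSeq table, 19.6% held ACGTG, 32.4% GCGTG and 43.8% either. The 4 genes below are the hypoxia genes with a motif in their window whose expression passed the test without KO 2. Bnip3 and P4ha2 had higher and Ddit4 and Hif1a lower values in KO 1 and KO 3. Their windows are shown. Each runs 5′ to 3′ on the strand of its gene, and capitals mark the motifs on either strand, read as their reverse complement where they lie on the other strand. A match of ACGTG can overlap its own match on the other strand by all but its outermost base.
Bnip3 (chr7:138909457-138909756, minus strand): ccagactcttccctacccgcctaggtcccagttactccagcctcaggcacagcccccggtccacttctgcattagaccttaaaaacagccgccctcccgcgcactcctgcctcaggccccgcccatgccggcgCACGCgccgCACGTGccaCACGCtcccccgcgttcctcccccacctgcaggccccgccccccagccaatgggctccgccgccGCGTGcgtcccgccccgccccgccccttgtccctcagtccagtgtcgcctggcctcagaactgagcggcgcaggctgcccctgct
P4ha2 (chr11:54100674-54100973, plus strand): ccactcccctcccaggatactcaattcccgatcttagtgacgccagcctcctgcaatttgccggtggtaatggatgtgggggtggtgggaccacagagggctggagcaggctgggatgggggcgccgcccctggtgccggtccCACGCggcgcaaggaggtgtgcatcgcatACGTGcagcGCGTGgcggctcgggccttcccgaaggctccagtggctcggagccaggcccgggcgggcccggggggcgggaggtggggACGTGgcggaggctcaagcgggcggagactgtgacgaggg
Ddit4 (chr10:59951721-59952020, minus strand): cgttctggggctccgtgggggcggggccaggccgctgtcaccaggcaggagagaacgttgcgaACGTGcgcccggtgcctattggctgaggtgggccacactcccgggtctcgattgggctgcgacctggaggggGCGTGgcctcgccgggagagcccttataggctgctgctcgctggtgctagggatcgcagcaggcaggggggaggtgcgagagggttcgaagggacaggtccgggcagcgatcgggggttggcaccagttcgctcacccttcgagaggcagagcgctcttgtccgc
Hif1a (chr12:73907617-73907916, plus strand): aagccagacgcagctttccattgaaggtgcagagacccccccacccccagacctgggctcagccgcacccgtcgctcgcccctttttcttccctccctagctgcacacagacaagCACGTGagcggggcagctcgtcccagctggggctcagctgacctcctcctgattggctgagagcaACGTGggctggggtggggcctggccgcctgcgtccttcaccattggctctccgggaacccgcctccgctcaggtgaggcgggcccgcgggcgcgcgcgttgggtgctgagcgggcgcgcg
The Bnip3 window held 5 matches, that of P4ha2 4, that of Ddit4 2 and that of Hif1a 3, overlapping matches counted separately. A motif was a condition for display, and 10 of the 11 hypoxia genes with a window held one. Its presence both in genes that were higher and in genes that were lower in KO 1 and KO 3 was therefore given in advance. A match is a run of letters and not a measured binding site.

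Over all 6 libraries no member passed the test, and without KO 2 the members moved in both directions. By the quasi-likelihood test of edgeR, with p adjusted over the 16166 genes tested (Benjamini-Hochberg), 0 of 34 members were lower and 0 higher in KO at an adjusted p under 0.05, as was the case for all genes (0.0% lower and 0.0% higher, smallest adjusted p = 0.184). At an unadjusted p under 0.05, 2 members were lower (Pfkfb3 and Slc16a1) and 10 higher, beside 11.9% and 15.2% of all genes. By DESeq2, Gapdh, Eno1 and Epas1 were called higher and 0 members lower, beside 4.68% of all genes higher and 2.63% lower. By edgeR's exact test, which called 0.662% of all genes higher and 0.501% lower, and by limma-voom 0 members were called either way. Without KO 2, 5 members fell and 14 rose among 16279 genes tested, whereas 28.3% of all genes fell and 24.5% rose. The median log2 fold change of the 34 members was 0.54 with KO 2 and 0.58 without it, beside -0.02 for all genes tested in each case, and with library totals alone as the scale it was 0.36 and 0.32, beside -0.17 and -0.29. All 34 passed the filter on low counts in both comparisons.

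These counts depend on scaling and on single libraries. Scaling by library totals alone, without the TMM factors, left 6 members lower without KO 2 (Ldha in addition) and 7 higher (Hk1, Pfkm, Pfkp, Pgam1, Eno2, Bnip3 and Epas1), beside 36.9% of all genes lower and 15.5% higher. From the comparison without KO 2, leaving out KO 3 as well removed all calls by edgeR, of the members and of all genes. Leaving out KO 1 or WT 3 in its place kept Hk2, Pfkfb3 and Ddit4 as lower and Pgam1 as higher. Without KO 2 and KO 1, 9.4% of all genes were lower and 1.9% higher. Without KO 2 and WT 3, which are the libraries absent from the study's table of RNA-seq results, 13.9% of all genes were lower and 2.87% higher. Leaving out WT 2 gave 5 lower members and the same 7 higher members as library totals (21.5% and 15.2% of all genes), and leaving out WT 1 gave 7 and 17 (34.2% and 32.1% of all genes). Where 1 KO library was left, it was assumed to vary like the WT libraries.

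**Figure D1:**
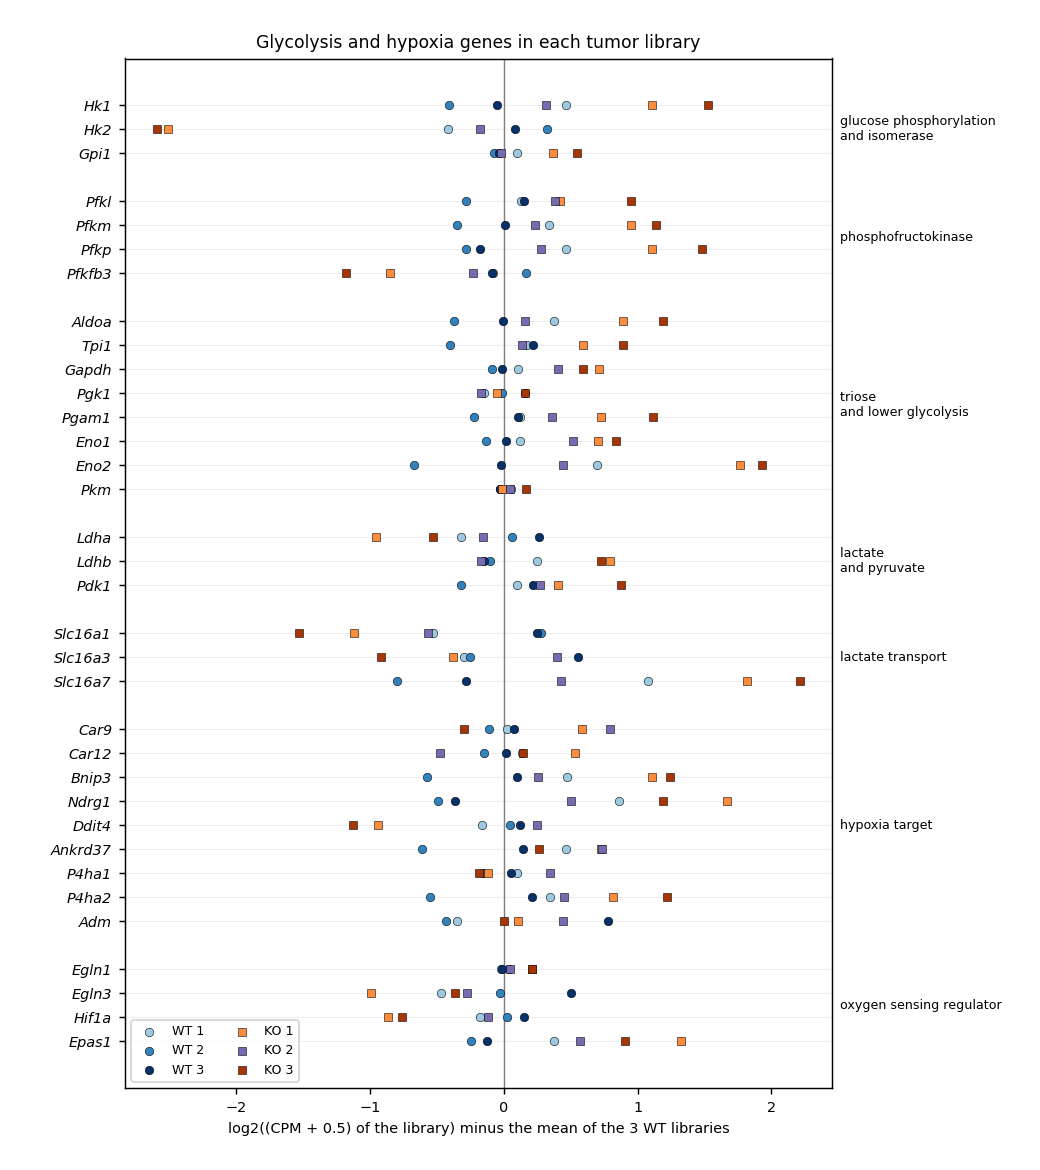
Level of each of the 34 members in each library, as log2 of CPM + 0.5 minus the mean of the 3 WT libraries (x axis), grouped by role (y axis). Circles are WT and squares KO libraries. KO 1 and KO 3 lie together far to the left for Hk2 and far to the right for Eno2 and Slc16a7, while KO 2 stays within the WT range for these 3 genes.

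Glucose is trapped in the cell by the hexokinases, and their isoforms moved in opposite directions. Hk1, the main brain isoform, had 271.7, 148.0 and 190.4 CPM in WT 1, WT 2 and WT 3, compared with 424.9, 245.4 and 568.3 CPM in KO 1, KO 2 and KO 3. Both KO 1 and KO 3 lay above all WT libraries, and KO 2 lay below WT 1. Expressed as log2, the fold change was 1.30 without KO 2 (SE 0.31, adjusted p = 0.0196, edgeR) and 1.02 over all 6 libraries (adjusted p = 0.184, edgeR). Hk2 (chromosome 6, 82725025 to 82774454 in GRCm38) is the inducible isoform and a HIF target of glioma cells. It had 44.5, 74.6 and 63.2 CPM in the WT libraries against 10.05 CPM in KO 1, 52.4 CPM in KO 2 and 9.45 CPM in KO 3. The mean of the WT libraries was 6.23 times that of KO 1 and KO 3, whereas KO 2 lay within the WT range. Hk2 had the lowest log2 fold change of the members, -2.62 without KO 2 (SE 0.25, adjusted p = 0.00798, edgeR) and -1.34 over all 6 libraries (SE 0.72, adjusted p = 0.227, edgeR). Gpi1, which isomerizes the phosphorylated glucose, had 338.5 to 381.1 CPM in WT, 458.7 CPM in KO 1, 350.7 CPM in KO 2 and 519.0 CPM in KO 3. Its log2 fold change of 0.48 without KO 2 did not pass the test (adjusted p = 0.0632, edgeR), nor did that of 0.32 over all 6 libraries (adjusted p = 0.29, edgeR). Without KO 2 it was called higher by DESeq2, and by edgeR when WT 1 was left out as well.

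At the committed step all 3 catalytic phosphofructokinase subunits rose without KO 2, while the regulatory enzyme Pfkfb3 fell. Pfkp, the platelet-type subunit that is abundant in brain, had 201.6, 120.1 and 128.9 CPM in WT and 315.1, 177.8 and 409.8 CPM in KO 1, KO 2 and KO 3. KO 2 lay below WT 1, and without it the log2 fold change was 1.28 (SE 0.29, adjusted p = 0.0172, edgeR). Pfkm, the muscle-type subunit, ran from 182.6 to 295.2 CPM in WT and reached 450.9 CPM in KO 1, 274.5 CPM in KO 2 and 513.7 CPM in KO 3 (log2 fold change 1.04 without KO 2, adjusted p = 0.0208, edgeR). KO 1 and KO 3 were above the WT range for both genes, and over all 6 libraries their log2 fold changes were 1.00 for Pfkp and 0.80 for Pfkm (adjusted p = 0.184 for each, edgeR). For Pfkl, the liver-type subunit, the 3 KO libraries had 169.2, 164.4 and 244.1 CPM, all above the WT values of 137.5, 103.8 and 140.2 CPM. Here KO 2 stood outside the WT range, and the log2 fold change was 0.72 without it (adjusted p = 0.0435, edgeR) and 0.60 with it (adjusted p = 0.184, edgeR). Pfkfb3 makes the sugar bisphosphate that activates phosphofructokinase and is itself a hypoxia target. It had 87.6, 103.6 and 87.2 CPM in the WT libraries and 51.0, 78.8 and 40.5 CPM in the KO libraries. All 3 KO values, KO 2 included, lay below all 3 WT values. The log2 fold change was -1.00 without KO 2 (SE 0.16, adjusted p = 0.00964, edgeR) and -0.71 over all 6 libraries (SE 0.26, adjusted p = 0.184, edgeR).

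Of the 8 triose and lower glycolysis genes, 5 rose and 0 fell without KO 2, beside 24.5% and 28.3% of all genes. At an unadjusted p under 0.05 by edgeR 6 rose and 0 fell, beside 4763 and 5202 of the 16279 genes tested. DESeq2, limma-voom and edgeR's exact test also called 0 of the 8 genes lower. With library totals as the scale 2 of the 8 rose and 0 fell, beside 15.5% and 36.9% of all genes. Without KO 2 and WT 3, 1 rose and 0 fell, beside 2.87% and 13.9%. The genes that rose include Gapdh, Eno1 and Pgam1, whose levels are uncertain for the reason given below. Eno2 (chromosome 6, 124760053 to 124769673), the enolase of neurons, had the largest fold change of these genes. It had 461.3, 178.4 and 280.1 CPM in WT 1, WT 2 and WT 3, compared with 970.1, 387.8 and 1086.8 CPM in KO 1, KO 2 and KO 3. Every WT library was exceeded by KO 1 and KO 3, and KO 2 was below WT 1. The mean of KO 1 and KO 3 was 3.35 times the WT mean, with a log2 fold change of 1.76 (SE 0.41, adjusted p = 0.0194, edgeR), and over all 6 libraries it was 1.41 (SE 0.52, adjusted p = 0.184, edgeR). Aldoa, the aldolase of muscle and many other tissues, had 1033.9, 616.6 and 794.0 CPM in WT and 1477.1, 890.4 and 1817.7 CPM in KO (log2 fold change 1.03 without KO 2, adjusted p = 0.0339, edgeR). KO 2 lay within the WT range of Aldoa and KO 1 and KO 3 above it, with a log2 fold change of 0.78 over all 6 libraries (adjusted p = 0.195, edgeR). Pgam1, a phosphoglycerate mutase, was higher in every KO library, with 58.9, 45.5 and 77.4 CPM against 38.5, 30.2 and 38.2 CPM in WT. It was the member that stayed called as higher when KO 1 or WT 3 was left out, and its log2 fold change was 0.95 without KO 2 (SE 0.19, adjusted p = 0.0137, edgeR) and 0.76 with it (adjusted p = 0.184, edgeR).

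Gapdh and Eno1 also lay above the WT range in all 3 KO libraries, but their levels were out of scale with their pathway. Gapdh, which oxidizes the triose phosphate, had 7.20, 6.24 and 6.60 CPM in WT and 11.2, 8.99 and 10.3 CPM in KO (log2 fold change 0.70 without KO 2, adjusted p = 0.0315, edgeR). By edgeR's exact test Gapdh was not called without KO 2. Eno1, the enolase found in most cells, had 3.81, 3.12 and 3.52 CPM in WT and 5.96, 5.20 and 6.59 CPM in KO (log2 fold change 0.86 without KO 2, adjusted p = 0.0289, edgeR). With KO 2 included the log2 fold changes were 0.61 for Gapdh and 0.76 for Eno1 (adjusted p = 0.184 for each, edgeR). In length-scaled values (FPKM), Tpi1, which acts beside Gapdh, was at 35.6 to 52.9 times the level of Gapdh, and Aldoa at 208.0 to 335.0 times that of Eno1. Only uniquely mapped reads were counted by the authors, and 58.4% of the 50-base runs in Gapdh transcripts (50 bases being the read length) occur in transcripts of other GENCODE vM21 genes, most of them pseudogenes. The share was 49.5% for Eno1 (48.4% with the copy Eno1b), 68.0% for Pgk1, 59.1% for Bnip3 and 41.5% for Pgam1, whereas 18 of the 34 members shared under 5% of their runs. The levels of these 5 genes are therefore uncertain, and so is any fold change that depends on which copy the reads came from.

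Tpi1, Pgk1 and Pkm did not pass edgeR's quasi-likelihood test. Tpi1, the triose isomerase, had 250.2 to 384.6 CPM in WT and 498.2, 362.3 and 612.1 CPM in KO 1, KO 2 and KO 3 (log2 fold change 0.74 without KO 2, adjusted p = 0.0539, and 0.55 with it, adjusted p = 0.216, edgeR). Without KO 2, Tpi1 was called higher by DESeq2, by edgeR's exact test, with RLE scaling and when WT 1 was left out as well. Pkm, the pyruvate kinase of brain and tumors, had 1131.5 to 1201.2 CPM in WT and 1146.6 to 1295.7 CPM in KO, and Pgk1, an X-linked kinase that yields ATP, had 65.3 to 80.7 CPM in WT and 64.3 to 80.7 CPM in KO. The groups overlapped for both, with log2 fold changes without KO 2 of 0.10 for Pkm and 0.07 for Pgk1, which turned to -0.17 and -0.20 when library totals alone set the scale. Over all 6 libraries they were 0.07 for Pkm, with -0.09 by library totals, and -0.02 for Pgk1.

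Among the enzymes that decide the fate of pyruvate, Ldhb rose without KO 2. Ldhb, the heart-type lactate dehydrogenase subunit that is also prominent in neurons, had 290.8, 228.6 and 221.6 CPM in WT, and 424.4 CPM in KO 1 and 405.8 CPM in KO 3. In KO 2 it had 217.8 CPM, lower than in any WT library. In the fit the log2 fold change was 0.77 without KO 2 (SE 0.20, adjusted p = 0.0233, edgeR) and 0.50 over all 6 libraries (adjusted p = 0.258, edgeR). Ldha, the muscle-type subunit and a HIF and Myc target, had 381.7, 498.2 and 571.9 CPM in WT and 246.0, 427.7 and 331.0 CPM in KO. Every WT library exceeded KO 1 and KO 3, but the log2 fold change of -0.73 missed the threshold (SE 0.25, adjusted p = 0.0526, edgeR) and passed it by DESeq2, limma-voom, edgeR's exact test, upper quartile scaling and library totals. Over all 6 libraries it was -0.53 (adjusted p = 0.219, edgeR). Pdk1, a kinase that inhibits pyruvate dehydrogenase, had 59.9, 44.6 and 65.1 CPM in WT and 74.0, 67.5 and 103.1 CPM in KO, with no overlap. In log2 its fold change was 0.66 without KO 2 (adjusted p = 0.0521, edgeR) and 0.53 with it (adjusted p = 0.186, edgeR). Pdk1 was called higher without KO 2 by DESeq2, edgeR's exact test and RLE scaling.

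Of the 3 lactate transporters, Slc16a1 fell, Slc16a7 rose and Slc16a3 did not pass without KO 2. Slc16a1 (chromosome 3, 104638668 to 104658462) encodes MCT1, which is found on endothelium, glia and tumor cells. It had 85.5, 150.0 and 146.9 CPM in WT 1, WT 2 and WT 3, against 56.6, 83.3 and 42.5 CPM in KO 1, KO 2 and KO 3. All KO libraries lay below all WT libraries, although KO 2 and WT 1 were close. The log2 fold change was -1.34 without KO 2 (SE 0.29, adjusted p = 0.0162, edgeR) and -1.07 over all 6 libraries (SE 0.33, adjusted p = 0.184, edgeR). Slc16a7 (chromosome 10, 125219270 to 125389465) encodes MCT2, the high-affinity transporter of neurons. It had 7.53, 1.69 and 2.63 CPM in WT and 12.9, 4.63 and 17.1 CPM in KO. KO 1 and KO 3 were above WT 1, the highest WT library, whereas KO 2 was below it. The log2 fold change was 1.93 without KO 2 (SE 0.62, adjusted p = 0.0436, edgeR), the highest of the members, and 1.54 with it (SE 0.71, adjusted p = 0.194, edgeR). Slc16a3 encodes MCT4, a hypoxia-induced exporter. With 5.79, 5.97 and 10.8 CPM in WT and 5.45, 9.65 and 3.58 CPM in KO, it did not pass (log2 fold change -0.72 without KO 2, adjusted p = 0.162, and -0.27 with it, adjusted p = 0.658, edgeR).

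**Figure D2:**
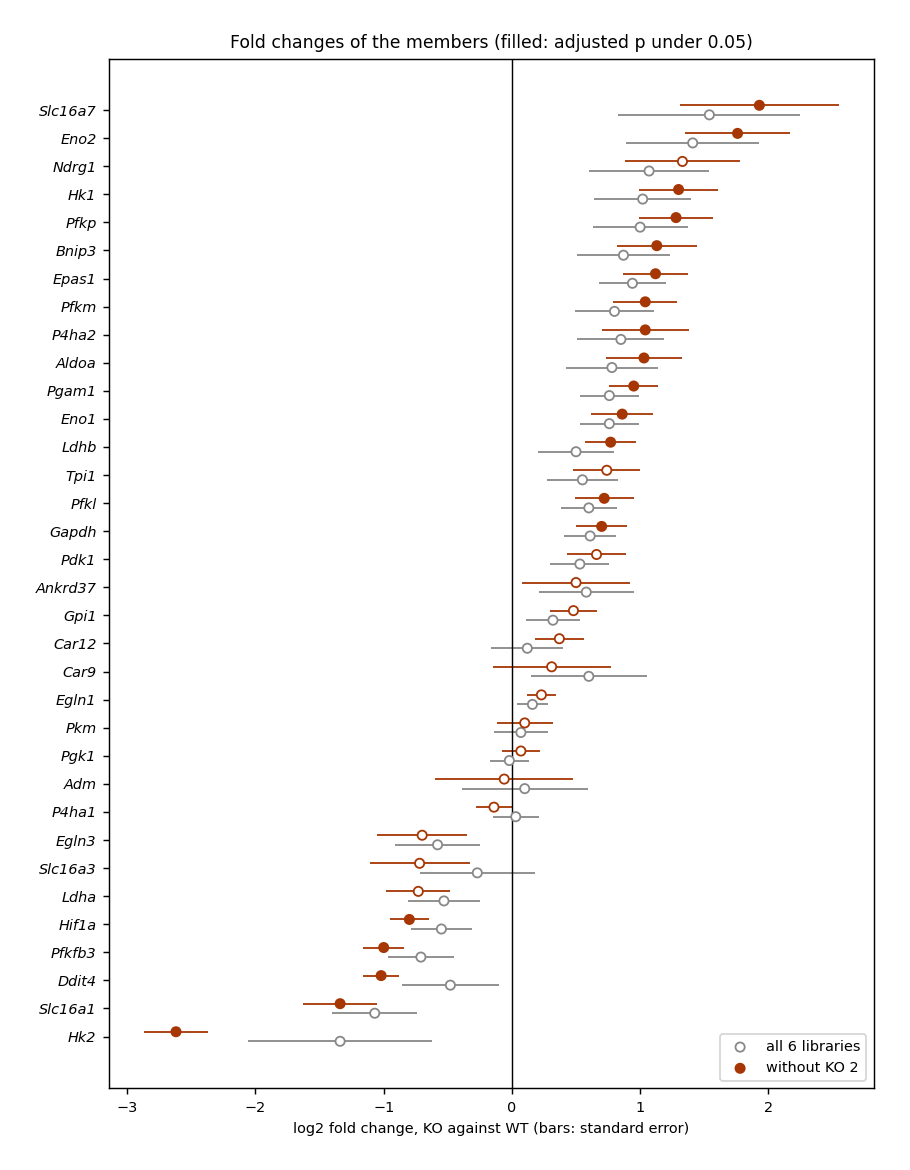
Log2 fold change of each member, KO against WT, with its standard error as derived from the F statistic (x axis). Values are from edgeR's quasi-likelihood fits over all 6 libraries (grey) and without KO 2 (red). Filled points have an adjusted p under 0.05. No grey point is filled, 5 red points left of 0 and 14 right of 0 are, and they run from -2.62 (Hk2) to 1.93 (Slc16a7).

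Isoform shares within a family do not depend on how the libraries are scaled, since the scale cancels. The shares were taken from the authors' FPKM, which use a single length per gene, and no test was made of them. Hk2 was 11.0%, 27.5% and 20.0% of the summed Hk1 and Hk2 in WT 1, WT 2 and WT 3, and 1.75%, 13.9% and 1.24% in KO 1, KO 2 and KO 3. Both KO 1 and KO 3 were below every WT library in the Hk2 share, whereas KO 2 lay within the WT range. Ldhb was 48.9%, 36.6% and 32.8% of lactate dehydrogenase in WT against 68.5%, 39.0% and 60.7% in KO. It was the major subunit in KO 1 and KO 3 and the minor one in the other libraries. Slc16a1 made up 78.0%, 91.6% and 85.9% of the 3 transporters in WT and 63.0%, 76.5% and 52.9% in KO, and this was the share for which all 3 KO libraries lay outside the WT range. Slc16a7 made up 12.6%, 1.89% and 2.82% in WT, 26.2% in KO 1, 7.78% in KO 2 and 39.1% in KO 3. Among the phosphofructokinases Pfkm took 52.2% to 56.4% in every library. Pfkp took 26.1%, 24.3% and 20.9% in WT and 27.5%, 23.7% and 29.1% in KO, and Pfkl 19.3%, 22.8% and 24.7% in WT and 16.0%, 23.8% and 18.8% in KO. KO 1 and KO 3 were thus above the WT range for Pfkp and below it for Pfkl, with KO 2 inside it for both. Eno2 was 97.5% to 99.1% of the enolase FPKM, a share that rests on the uncertain Eno1 level.

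**Figure D3:**
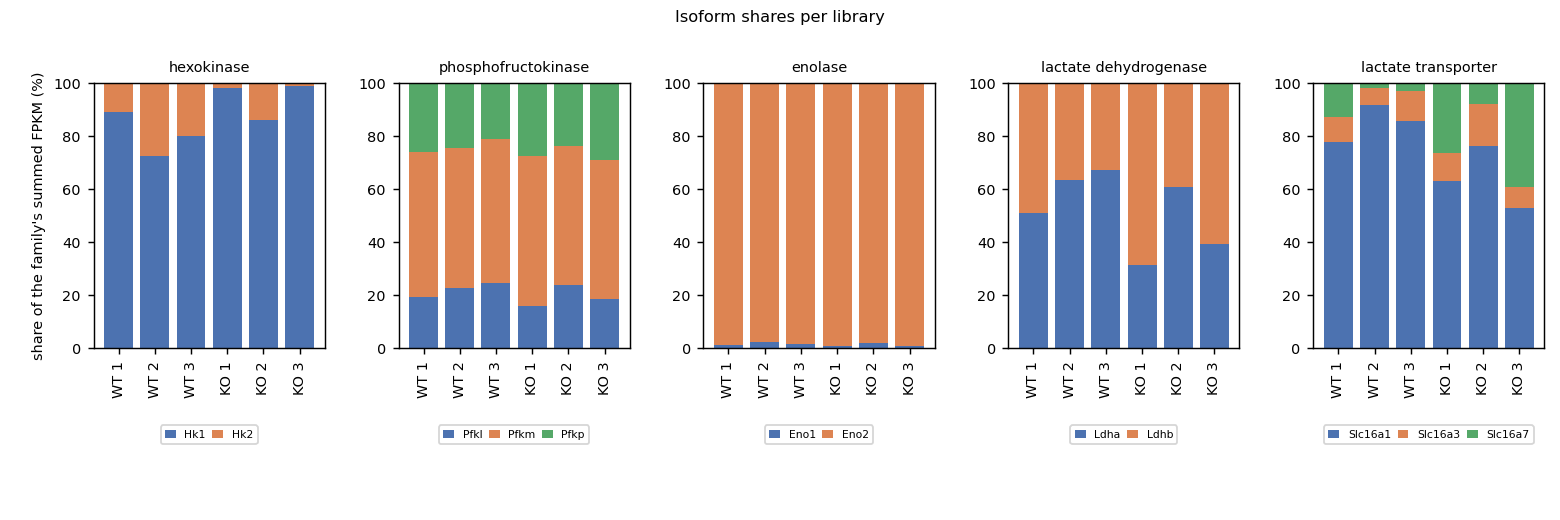
Share of each isoform in the summed FPKM of its family (y axis, percent) in each library (x axis) for 5 families. Hk2 takes 1.75% and 1.24% in KO 1 and KO 3, Ldhb exceeds Ldha in those same libraries, and Pfkm stays between 52.2% and 56.4% in all 6.

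Of the 9 hypoxia targets, 2 rose and 1 fell without KO 2, where 24.5% of all genes rose and 28.3% fell. Bnip3, a mitochondrial protein of mitophagy, had 62.5, 30.1 and 48.2 CPM in WT and 97.3, 53.9 and 106.8 CPM in KO, with KO 2 inside the WT range. On the log2 scale the fold change was 1.13 without KO 2 (SE 0.31, adjusted p = 0.0272, edgeR) and 0.87 with it (adjusted p = 0.184, edgeR). P4ha2, a collagen prolyl hydroxylase subunit, was above WT in every KO library, with 11.8, 9.08 and 15.8 CPM against 8.38, 4.28 and 7.59 CPM. In the fit its log2 fold change was 1.04 without KO 2 (SE 0.34, adjusted p = 0.0454, edgeR) and 0.85 with it (adjusted p = 0.184, edgeR). Ddit4, an inhibitor of mTORC1 signaling that is induced by hypoxia and other stress, had 69.3, 80.2 and 84.6 CPM in WT against 40.4 CPM in KO 1 and 35.4 CPM in KO 3. KO 2 stood at the opposite end, at 92.4 CPM above every WT library. Without KO 2 the log2 fold change was -1.02 (SE 0.14, adjusted p = 0.00809, edgeR) and -0.48 over all 6 libraries (SE 0.38, adjusted p = 0.372, edgeR).

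The other 6 hypoxia targets did not pass edgeR's quasi-likelihood test. Ndrg1, which is also a myelin gene of oligodendrocytes and Schwann cells, had 80.6, 31.3 and 34.2 CPM in WT and 141.6, 62.9 and 101.5 CPM in KO (log2 fold change 1.33 without KO 2, adjusted p = 0.0502, and 1.07 with it, adjusted p = 0.188, edgeR). Without KO 2, Ndrg1 was called higher by DESeq2, edgeR's exact test, limma-voom, RLE and upper quartile scaling and when WT 1 was left out as well. KO 1 and KO 3 were above the WT range, and the markers of myelinating oligodendrocytes summed to 1418.4 to 3523.2 CPM in WT and to 7844.3, 3351.5 and 4056.8 CPM in KO 1, KO 2 and KO 3; their part in the Ndrg1 values was not tested. Car9, the carbonic anhydrase used as a hypoxia marker, was near the limit of these libraries, with 1.04, 0.899 and 1.09 CPM in WT and 1.76, 2.12 and 0.727 CPM in KO. Its KO values lay on both sides of the WT range (log2 fold change 0.31 without KO 2, adjusted p = 0.583, and 0.60 with it, adjusted p = 0.338, edgeR). Car12, a related carbonic anhydrase, had 19.6 to 23.9 CPM in WT and 31.7, 15.5 and 24.0 CPM in KO. Its log2 fold change was 0.12 over all 6 libraries, -0.06 with library totals, and 0.37 without KO 2 (adjusted p = 0.139, edgeR). Ankrd37 and Adm, a small ankyrin protein and the vasodilator adrenomedullin, had 2.27 to 5.32 and 1.22 to 3.47 CPM in WT and 4.57 to 6.52 and 1.82 to 2.64 CPM in KO, so that the groups overlapped. P4ha1, a gene related to P4ha2, had 55.8 to 66.7 CPM in WT and 57.3, 79.2 and 54.8 CPM in KO, with KO 2 the highest of all libraries. Without KO 2 the log2 fold changes were 0.50 for Ankrd37 (0.58 with it), -0.06 for Adm and -0.14 for P4ha1, and the latter pair turned with the choice of libraries, to 0.10 and 0.03 over all 6 libraries and with library totals there to -0.04 and -0.10.

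The genes for the HIF alpha subunits moved in opposite directions without KO 2. Hif1a had 154.3, 177.8 and 194.2 CPM in WT and 95.9, 161.1 and 102.8 CPM in KO 1, KO 2 and KO 3. Both KO 1 and KO 3 were below every WT library and KO 2 was among them. The log2 fold change was -0.80 without KO 2 (SE 0.15, adjusted p = 0.0129, edgeR) and -0.55 over all 6 libraries (SE 0.24, adjusted p = 0.188, edgeR). Epas1 (chromosome 17, 86753700 to 86833410), the alpha subunit that is prominent in endothelial cells and astrocytes, had 109.4, 71.0 and 77.3 CPM in WT and 211.5, 125.2 and 158.5 CPM in KO. All 3 KO libraries, KO 2 included, were above all 3 WT libraries. The log2 fold change was 1.12 without KO 2 (SE 0.25, adjusted p = 0.0171, edgeR) and 0.94 over all 6 (SE 0.26, adjusted p = 0.184, edgeR). By FPKM, Epas1 was at 0.63, 0.355 and 0.354 times the level of Hif1a in WT and at 1.96, 0.691 and 1.37 times in KO, so that the order of the pair was inverted in KO 1 and KO 3. HIF alpha is controlled mainly through protein stability, which was not measured here.

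The Egln enzymes hydroxylate the HIF alpha subunits when oxygen is present. Egln1, the main enzyme, had 93.8 to 97.6 CPM in WT and 110.0, 98.6 and 110.1 CPM in KO, above WT in every library by a small margin. Its log2 fold change without KO 2 was 0.23 (SE 0.11, adjusted p = 0.136, edgeR) and -0.04 with library totals, and over all 6 libraries it was 0.16 and -0.01. Egln3, an enzyme that is itself a strong hypoxia target, had 15.5, 21.2 and 30.8 CPM in WT and 10.7, 17.8 and 16.7 CPM in KO, with overlap between the groups (log2 fold change -0.70 without KO 2, adjusted p = 0.134, and -0.58 with it, adjusted p = 0.241, edgeR).

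Groups that did not overlap were counted over all members as a description. With KO 2, the KO libraries were all below WT for 2 members and all above for 8, while this held for 14.8% and 12.6% of all genes tested. Without KO 2 the counts were 7 below and 20 above, beside 40.3% and 37.2% of all genes. Within the WT libraries, WT 1 was the nearest to KO 1 and KO 3 for 26 of the 34 members, as it was for 75.2% of all genes.

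Further genes of both pathways, from lists that leave out the members, gave mixed results. Of all genes tested without KO 2, 28.3% fell and 24.5% rose (36.9% and 15.5% with library totals), with medians of -0.02 and -0.29. Of 30 other glycolysis genes tested, 5 fell and 12 rose without KO 2 (6 and 9 with library totals). Their median log2 fold change was 0.40, or 0.13 with library totals. Fbp1 (-2.91), a gluconeogenic phosphatase with 0.0568 to 1.74 CPM, Hk3 (-2.29), the hexokinase of myeloid cells, and Pgm1 (-1.30), a phosphoglucomutase, had the lowest log2 fold changes and were called. Hkdc1 (2.34), a hexokinase-like gene, and Pgam2 (1.30), the muscle mutase, were called among the highest, while Pdp1 (1.52), a phosphatase that activates pyruvate dehydrogenase, was not (adjusted p = 0.0627, edgeR). Slc2a1, the glucose transporter of the blood-brain barrier, had 54.0 to 61.1 CPM in WT and 79.2, 60.4 and 67.1 CPM in KO (log2 fold change 0.39 without KO 2, adjusted p = 0.0593, edgeR). Of 47 other hypoxia genes tested, 16 fell and 8 rose without KO 2 (18 and 2 with library totals), with a median of 0.11, or -0.15 with library totals. Hmox1 (-3.34), the heme oxygenase, and Stc2 (-3.01), a stanniocalcin, had the lowest values and were called. At the other end Arnt2 (0.90), the neuronal partner of HIF alpha, was called, while Hif3a (1.07, adjusted p = 0.102, edgeR) and Stc1 (0.96, adjusted p = 0.0738, edgeR) were not. Vegfa, the angiogenic hypoxia target, had 83.1 to 97.0 CPM in WT and 109.4, 136.9 and 84.4 CPM in KO (log2 fold change 0.11 without KO 2, adjusted p = 0.571, edgeR). Over all 6 libraries the log2 fold changes of the named glycolysis genes were -0.97 for Fbp1, -0.66 for Hk3, -0.82 for Pgm1, 1.88 for Hkdc1, 1.04 for Pgam2, 1.12 for Pdp1 and 0.29 for Slc2a1. Those of the named hypoxia genes were -1.60 for Hmox1, -1.75 for Stc2, 0.63 for Arnt2, 0.89 for Hif3a, 0.81 for Stc1 and 0.28 for Vegfa. With KO 2 included, 0 genes of either list passed in any direction by edgeR. At an unadjusted p below 0.05 (edgeR), 0 other glycolysis genes were lower and 8 higher, and 4 other hypoxia genes lower and 3 higher. Of all genes, 11.9% were lower and 15.2% higher at that level.

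Markers of several cell types moved with these genes without KO 2, and over all 6 libraries 0 genes of any marker list were called by edgeR. Of all genes, 28.3% were called lower and 24.5% higher without KO 2. The 15 neuron markers other than Eno2 summed to 7116.6, 2904.3 and 4494.8 CPM in the WT libraries and to 15186.0, 6220.4 and 18199.4 CPM in KO 1, KO 2 and KO 3, with 14 of 15 called higher without KO 2 (the most abundant, Camk2a and Snap25, had log2 fold changes of 2.00 and 2.15). The 15 cycling markers summed to 1432.6, 2713.2 and 2508.2 CPM in WT and to 164.4, 1597.6 and 66.35 CPM in KO, with 15 of 15 called lower (Top2a -5.17, Mki67 -4.58). Over all 6 libraries the log2 fold changes were 1.68 for Camk2a, 1.72 for Snap25, -2.02 for Top2a and -1.79 for Mki67, and at an unadjusted p under 0.05 by edgeR 9 neuron markers were higher and 0 cycling markers lower. Without KO 2 and WT 3, 0 neuron markers were called by edgeR (12 higher at an unadjusted p under 0.05) and 14 cycling markers were called lower. KO 1 and KO 3 thus held the most neuronal and the least cycling RNA, and WT 1 was the WT library nearest to them in both sums. Astrocyte markers other than Aldoc ran from 3012.7 to 3814.1 CPM in WT and from 4169.1 to 6180.7 CPM in KO (1 of 9 lower and 5 higher, Slc1a2 2.11 and Slc1a3 -0.00), and of the 10 oligodendrocyte markers 2 were higher (Mbp, at 1.53, was not called). Microglia and macrophage markers summed to 1038.7 to 1124.6 CPM in WT, 610.3 CPM in KO 1, 1426.5 CPM in KO 2 and 554.8 CPM in KO 3 (7 of 12 lower and 1 higher, C1qa -1.66 and C1qb -1.60). Endothelial markers summed to 234.0 to 296.8 CPM in WT and 226.6 to 296.8 CPM in KO (0 of 12 lower, 1 lower at an unadjusted p under 0.05 by edgeR, and 2 higher, Flt1 0.84 called, Cldn5 -0.34 not). Mural markers summed to 331.8 to 443.7 CPM in WT and to 228.5, 453.6 and 162.0 CPM in KO, with 3 of 10 lower and 2 higher (Cspg4 -2.53 called, Rgs5 -0.16 not). Cspg4, which oligodendrocyte progenitors and glioma cells also express, held much of that sum, with 192.4, 246.6 and 213.1 CPM in WT and 45.9, 299.7 and 28.5 CPM in KO. The other 9 mural markers, summed after the values were seen, came to 139.4 to 221.1 CPM in WT and 182.6, 153.9 and 133.6 CPM in KO. Of the red blood cell markers Alas2 was measured, at 2.33 to 12.1 CPM. The part of these markers in the values of the glycolysis and hypoxia genes was not tested, and in such bulk tissue fewer cells of a type and less RNA per cell cannot be told apart.

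**Figure D4:**
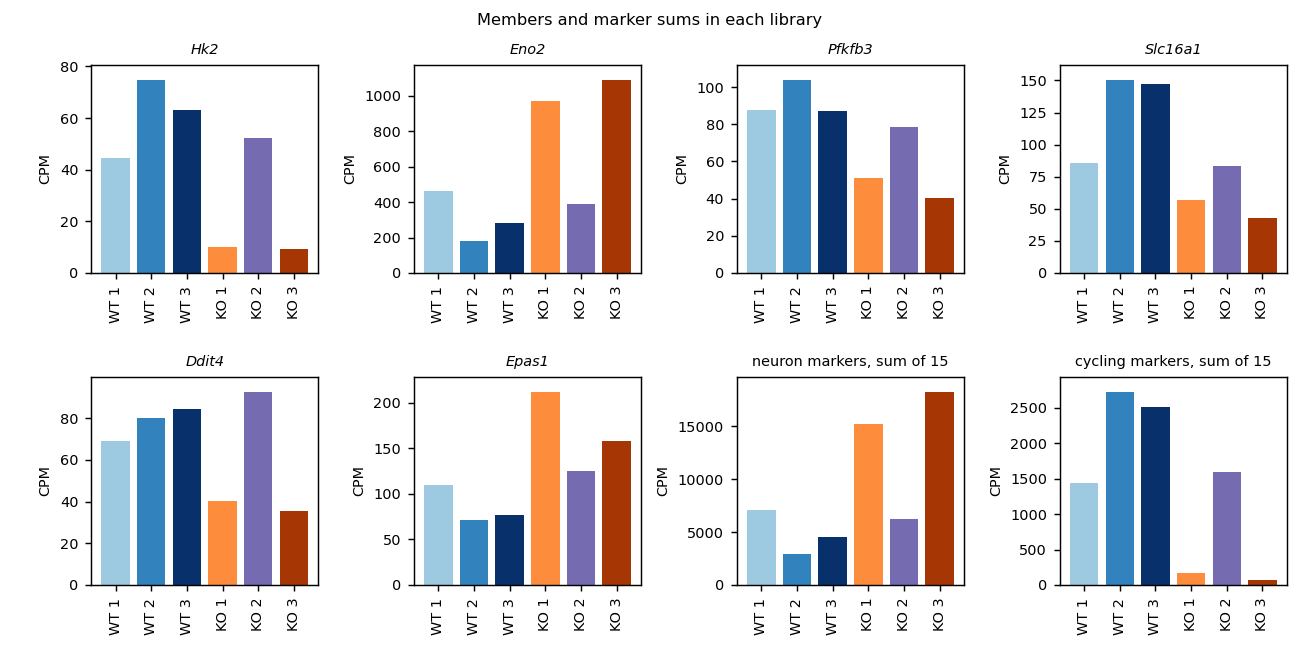
CPM (y axis, from 0) in each library (x axis) for 6 members and for the summed markers of neurons and of cycling cells, with 1 bar per library. The libraries come in the same order for Eno2 as for the neuron sum. Hk1, Pfkm, Pfkp, Aldoa, Slc16a7 and Bnip3 also have this order, as does the first principal component of all genes, with 88.1% of the variance. The order is thus not particular to Eno2. Hk2 is low where the cycling sum is low (KO 1 and KO 3), and Pfkfb3, Slc16a1 and Epas1 separate all KO from all WT libraries.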

How the data were processed

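Bulk RNA-seq of 6 tumors was analyzed, 3 per group by the labels. The authors deposited raw read counts per gene, counted with HTSeq on RefSeq genes from uniquely mapped reads per the study's methods, beside FPKM values they made with a single length per gene and the raw library total. Per the labels, the submitters used CASAVA 1.8.2, edgeR, the NEBNext Ultra kit and mm10, while the published methods give hg38 and an Ovation Ultralow kit. Mouse gene symbols fill the table. The authors' columns of fold changes and p-values for their own comparison were not used. Whether counting used strand is not given in the sources used here, so that Hk1, Pfkp, Hif1a, Car9 and Ankrd37 cannot be told apart from overlapping genes or antisense partners where they share sequence. Pfkm and Ndrg1 also share 8.83% and 12.3% of their 50-base runs with other genes that are not pseudogenes.

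Counts were fitted with edgeR 4.0.16 (quasi-likelihood F test, TMM factors for RNA composition, filterByExpr with a minimum count of 10 and a minimum total of 15) and limma 3.58.1 in R 4.3.3, with group as the only term. Benjamini-Hochberg adjustment ran over all genes tested, and a gene was called at an adjusted p under 0.05. The standard errors given were derived from edgeR's output, as the absolute log2 fold change divided by the square root of the F statistic. DESeq2 1.42.0, limma-voom, edgeR's exact test, other scalings and filters and leaving out each library were alternatives. CPM were computed from the counts with TMM factors, and isoform shares from the authors' FPKM. Gene coordinates and transcripts came from GENCODE vM21, and promoters from RefSeq (GRCm38.p6). Figures were made with Python 3.11.15 and matplotlib 3.10.9. The members, lists and tests were chosen with earlier results of these data known. Named were all 34 members, the 3 lowest and 3 highest genes of each further list by log2 fold change without KO 2, Slc2a1 and Vegfa, the 2 most abundant genes of each marker list, and Esm1. Promoters were shown for the hypoxia genes with a motif and the largest log2 fold changes, of which the 4 called ones are printed. Some genes that this rule names are not reported here.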

Additional observations from a re-analysis of the deposited data

How the results depend on the processing

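Over all 6 libraries, DESeq2 called 425 genes lower and 757 higher with 3 members higher, and edgeR's exact test called 81 and 107 with 0 members. All other scalings, filters and limma-voom gave 0 calls. At an unadjusted p below 0.05 by edgeR or limma-voom they gave 2 to 4 members lower and 7 to 12 higher. Of all genes, 1629 to 2749 were lower and 1672 to 2749 higher at that level. Leaving out 1 library of the 6 gave 0 to 4608 lower and 0 to 3986 higher genes, with 0 to 5 lower and 0 to 14 higher members, and every call came from leaving out KO 2. In the further lists, leaving out a library gave 0 to 5 lower and 0 to 12 higher other glycolysis genes and 0 to 16 lower and 0 to 8 higher other hypoxia genes. From the 5 libraries without KO 2, leaving out another gave 0 to 5532 lower and 0 to 5195 higher genes, with 0 to 7 lower and 0 to 17 higher members. Library totals alone left 2526 higher genes and 7 higher members there.

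The members that turned in sign were not called in either comparison. With library totals, values over all 6 libraries were -0.09 for Pkm, -0.06 for Car12, -0.10 for P4ha1, -0.04 for Adm and -0.01 for Egln1, and without KO 2 they were -0.20 for Pgk1, -0.17 for Pkm and -0.04 for Egln1. Pgk1 had 0.02 by DESeq2 and RLE scaling over all 6 libraries, and Adm 0.11 by limma-voom without KO 2. With a library left out of the 6, values of the members that turned ran from -0.16 to 0.78 (Adm), -0.14 to 0.37 (Car12), -0.14 to 0.13 (P4ha1), -0.11 to 0.08 (Pgk1) and -0.72 to 0.10 (Slc16a3). From the 5 libraries they ran from -0.33 to 0.58 (Adm), -0.45 to 0.82 (Car9) and -0.04 to 0.17 (Pgk1). The cause was not tested.

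KO and WT libraries share replicate numbers, and the labels name no pairing. Correlations of same-numbered libraries' deviations from their group means were 0.657, 0.695 and -0.296, and KO 3 with WT 1, of unlike number, had 0.65. Deviations within so small a group are tied to each other, so these values cannot tell whether the libraries were paired. With the replicate block 0 genes and 0 members were called either way by edgeR. The smallest adjusted p was 0.065 by edgeR, against 0.184 without the block, and the members' median was 0.51. At an unadjusted p below 0.05 by edgeR 6 members were lower and 16 higher, beside 3328 and 3502 of the 16166 genes tested. Without KO 2 a replicate block was not fitted. Depth limits Car9, Adm, Slc16a7, Ankrd37, Eno1, Slc16a3 and P4ha2, which had under 100 counts in some libraries.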
